A study of Mus musculus with 6 samples.

Results

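The 44 genes described here build and run the motile cilium, the beating hair-like organelle of airway epithelium. They were taken from a list written by gene function, covering axonemal dyneins, radial spokes, tektins and multiciliation factors. Earlier results of these data were known when it was chosen. Of the 44, 43 had at least 1 array probe that could be matched to the gene, 42 had a usable probe, and 41 were tested, among 16362 genes tested in all. No probe was matched to Ccdc40, the single probe of Cfap53 was marked as an outlier by the scanner software on 1 array, and Dnah1 was too dim to test.

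Lung RNA came from male C57BL6 mice 10 weeks of age. All of them had been starved for 16 h and then injected i.p. with LPS, the endotoxin of gram-negative bacteria, at 20 mg/kg. The saline group (n = 3 mice) was injected with saline 3 h and 24 h after LPS, and the rhTM group (n = 3 mice) received recombinant human thrombomodulin, a soluble form of an endothelial anticoagulant receptor, at the same times. Lungs were taken 30 h after LPS, and each mouse had its own 1-colour Agilent array, so no group here was free of LPS.

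Motile cilia are moved by outer and inner dynein arms, which slide the paired microtubules of the axoneme against each other, while radial spokes, the central pair and the nexin-dynein regulatory complex keep the beat in order. In the airway they are carried by multiciliated cells and clear mucus. The transcription factor Foxj1 and the RFX factors, which bind a DNA motif called the X-box, switch on this gene programme, and multicilin starts the making of many basal bodies in a cell.

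Each signal below is the brightness of the gene's brightest probe as a multiple of the 75th percentile of its array, and differences are on the log2 scale, rhTM minus saline. Signals are compared between arrays and not between genes. A whole-lung extract cannot tell apart fewer ciliated cells from less ciliary RNA in each cell. All 12 alveolar type 2 cell markers and all 16 airway secretory cell markers of 2 hand-written lists passed the filter on dim probes, as did 41 ciliary genes.

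The identity of 2 arrays is unsettled and touches every comparison. The authors also deposited a table of values, in which these 2 arrays trade places. The scanner output deposited for rhTM replicate 2 stands there under saline replicate 1 (equal to within 0.1% at 99.8% of 56207 probes). That deposited for saline replicate 1 stands under rhTM replicate 2 (99.9%). Both assignments are labels given in the deposit. Below, as scanned and by the scanner output mean the label under which each scanner output was deposited. The other 4 columns matched their own arrays. The comparisons are therefore given both as scanned and as the table has them, and those over all members also without both arrays. The array scanned as saline replicate 1 also had an RNA spike-in slope of 0.826, outside the range set by the software, against 1.07 to 1.09 on the other 5. By the scanner output, saline replicate 1 and rhTM replicate 3 shared slide 2, and the other 4 arrays were on slide 1. By the table all 3 saline arrays and rhTM replicate 1 were on slide 1, and rhTM replicates 2 and 3 on slide 2. Slide and treatment are thus partly mixed in the differences by the table and cannot be fully told apart there. Between 36243 and 40647 probes were well above background on each array, and 0 spots were saturated.

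The promoters of the genes were searched for the letters that RFX and forkhead factors are known to prefer. RefSeq gave promoter sequence (build GRCm38.p6) for 39 of the 44 genes, with 45 start sites. The 250 bases before each start were read on the strand of the gene and matched on both strands. The full X-box, which reads GT, CC, GG and AC in that order with 2 free bases between each pair, was present in 5 of 45 promoters of these genes (11.11%) and in 1.568% of 32851 promoters of all genes. A looser arm, spelled GTTGCNA, which fits the full X-box as written here only where its free base is C, was present in 16 of 45 (35.56%) against 8.773%. The forkhead core TGTTTAC was found in 3 of 45 (6.667%), those of Ak7, Cfap43 and Sntn, against 3.166%. These matches describe the letters and show no binding. Whether they go with the signals across the arrays was not tested.

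Of the members whose values are given array by array, Ccno has a full X-box within the window that lies 219 bases before its start. The promoters of Drc1, Dynlrb2, Hydin, Mcidas, Dnah5, Lrrc23, Tekt1 and Cfap44 hold this looser arm without a full X-box. It lies 12 bases before the start in Drc1, 45 in Dynlrb2, and 87 and 14 in Hydin. These 3 are shown, beside Ccno, for the high correlation of their genes with the other members. Cfap43, with the highest such correlation (0.997), has neither a full X-box nor the arm, while Mcidas, which holds the arm, had 0.31. Capitals mark the full X-box of Ccno, whose looser arms at 160 and 159 bases are left in lower case, and the looser arms of the others, for Ccno at chr13:112987552-112987801 (+), Drc1 at chr5:30281143-30281392 (+), Dynlrb2 at chr8:116504765-116505014 (+) and Hydin at chr8:110266727-110266976 (+).
Ccno: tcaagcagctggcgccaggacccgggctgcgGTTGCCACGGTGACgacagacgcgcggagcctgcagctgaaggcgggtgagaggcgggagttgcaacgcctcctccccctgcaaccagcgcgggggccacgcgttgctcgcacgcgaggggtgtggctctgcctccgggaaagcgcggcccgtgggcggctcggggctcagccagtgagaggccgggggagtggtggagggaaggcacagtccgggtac
Drc1: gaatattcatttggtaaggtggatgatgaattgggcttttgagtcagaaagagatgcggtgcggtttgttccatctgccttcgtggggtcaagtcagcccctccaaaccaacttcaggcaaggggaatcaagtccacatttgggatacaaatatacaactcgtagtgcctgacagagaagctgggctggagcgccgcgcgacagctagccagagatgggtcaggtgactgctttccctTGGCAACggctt
Dynlrb2: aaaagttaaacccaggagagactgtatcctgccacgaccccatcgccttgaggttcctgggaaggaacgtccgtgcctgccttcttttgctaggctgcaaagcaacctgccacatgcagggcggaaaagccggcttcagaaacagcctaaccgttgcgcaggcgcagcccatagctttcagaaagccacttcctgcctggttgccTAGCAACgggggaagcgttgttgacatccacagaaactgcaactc
Hydin: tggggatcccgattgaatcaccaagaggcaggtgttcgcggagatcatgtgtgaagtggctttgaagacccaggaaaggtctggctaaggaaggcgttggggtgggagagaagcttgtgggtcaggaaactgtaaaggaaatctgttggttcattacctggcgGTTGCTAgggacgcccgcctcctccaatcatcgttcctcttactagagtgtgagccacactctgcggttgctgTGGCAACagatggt
Cfap126 and Kif9 also have a full X-box, 82 and 27 bases before a start. Both matches lie downstream of another start of the same gene, so the matching bases are given alone, again in capitals.
Cfap126: GTATCCATGGCTAC
Kif9: GTTGCCATGGCGAC

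Across the arrays the ciliary genes moved together, and the array scanned as rhTM replicate 2 stood lowest. It gave the lowest of the 6 signals for 38 of 41 genes, whereas it was lowest for 12.4% of all 16362 genes. Replicates 1 and 3 of rhTM gave the highest signal for 20 and 18 of the 41. In 37 of 41 genes rhTM replicate 2 was lowest and rhTM replicate 1 or 3 highest, a pattern of 8.17% of all genes. As a mean over the 41 genes, the log2 deviation from each gene's own mean was −0.09, −0.22 and 0.07 in saline replicates 1, 2 and 3, and 0.46, −0.62 and 0.40 in rhTM replicates 1, 2 and 3.

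**Figure D1:**
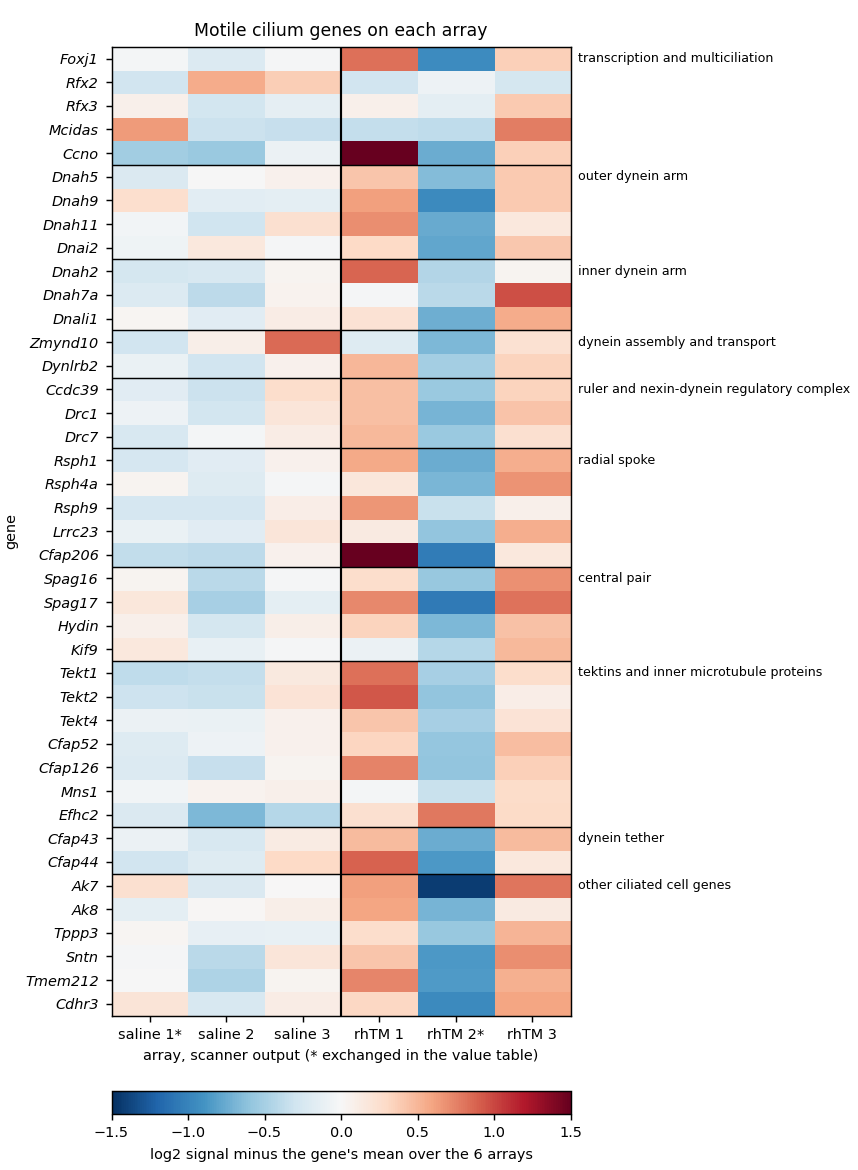
Log2 signal of each of the 41 tested motile cilium genes on each array, as the deviation from that gene's mean over the 6 arrays (colour), with genes in rows by role and arrays in columns. The column of rhTM replicate 2 is blue for 40 of 41 genes and that of rhTM replicate 3 red for 40 of 41, and the asterisks mark the 2 arrays that the authors' table exchanges.

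The range over the 6 arrays had a median of 1.29 log2 units for the 41 genes, from 0.62 to 2.63, against 0.54 for all genes. Over the 820 pairs of members, Pearson's r across the 6 arrays had a median of 0.83, from −0.77 to 0.996. This is a description of 6 arrays that share their hybridisation and scaling. With the mean of the other members, 25 genes had an r over 0.9, 12 lay between 0.6 and 0.9, and 4 were under 0.6. Those 4 were Rfx2 (−0.37), Efhc2 (−0.15), Mcidas (0.31) and Zmynd10 (0.44). Of the 16321 genes outside the list, 2.15% had an r over 0.9 with the profile of the members.

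The spread lay mainly within the rhTM group as scanned. The SD over 3 arrays had a median of 0.20 log2 units in saline and 0.66 in rhTM for the 41 genes, and of 0.16 and 0.22 for all genes. It was larger in rhTM for 39 of 41 genes, against 66.0% of all genes. By the authors' table the medians for the 41 genes were 0.40 in saline and 0.33 in rhTM.

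By the scanner output, no ciliary gene differed between rhTM-treated and saline-treated mice after adjustment. With limma and Benjamini-Hochberg adjustment over 16362 genes, 0 of 41 were called, as were 0 of all genes (0%), and the lowest adjusted p was 0.99994. The rhTM mean was higher for 34 of 41 genes, against 50.7% of all genes. The median difference was 0.13, against 0.0026 for all genes. At an unadjusted p under 0.05 there was 1 of the 41 genes, Efhc2, against 1.86% of all genes. Full separation of the groups was seen for 1 of 41 genes, again Efhc2, against 5.52% of all genes. For single genes an exact permutation test over the 6 arrays, two-sided, is given too, and its smallest possible p is 0.1.

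The authors' table gave a larger median difference, and again 0 of 41 genes were called by limma (0% of 16312 genes), with a lowest adjusted p of 0.313 among the 41. The rhTM mean was higher for 39 of 41, against 46% of all genes, with a median difference of 0.50 against −0.02. At an unadjusted p under 0.05 there were 13 of 41, against 14% of all genes. The 3 rhTM values lay above all saline values for 8 of 41, against 9.68% of all genes, and below them for 1, Rfx2, against 12%, or 21.7% of all genes in either direction. Those above were Rfx3, Dnah9, Rsph4a, Spag16, Spag17, Ak7, Tppp3 and Cdhr3. Of them, Ak7 was not well above background on the array that the table puts at saline replicate 1. It passed the filter there only through its rhTM arrays, and its separation includes that dim reading.

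Without both exchanged arrays, 2 rhTM and 2 saline arrays remained. The rhTM mean was then higher for 39 of 41 genes, against 48.5% of all genes, and the median was 0.51. Both rhTM arrays were above both saline arrays for 30 of 41, against 20% of all genes, and 31 of 41 did not overlap in either direction, against 41.5%. Here limma called 0 of 41 against 0.00608% of all genes. Within slide 1, which holds rhTM replicates 1 and 2 and saline replicates 2 and 3 as scanned, the mean was higher for 15 of 41 genes (50.3% of all genes) with a median of −0.04, and 5 of 41 did not overlap (26.8% of all genes). Within slide 2, rhTM replicate 3 was above saline replicate 1 for 41 of 41 (48.5% of all genes), with a median of 0.51 and no test, since 1 array stood against 1. Without rhTM replicate 2 alone, 39 of 41 were higher (50.2% of all genes) with a median of 0.50, and both remaining rhTM arrays were above every saline array for 29 of 41 (11.9% of all genes). Leaving out rhTM replicate 1 gave 17 of 41 higher (50.3% of all genes) and a median of −0.04. Leaving out rhTM replicate 3 gave 18 of 41 higher (51.7% of all genes) and a median of −0.03. By the table only rhTM replicate 1 shared a slide with saline arrays, so a slide term there sets that 1 array against 3. In that fit limma called 0 of 41 and 2.65% of all genes.

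**Figure D2:**
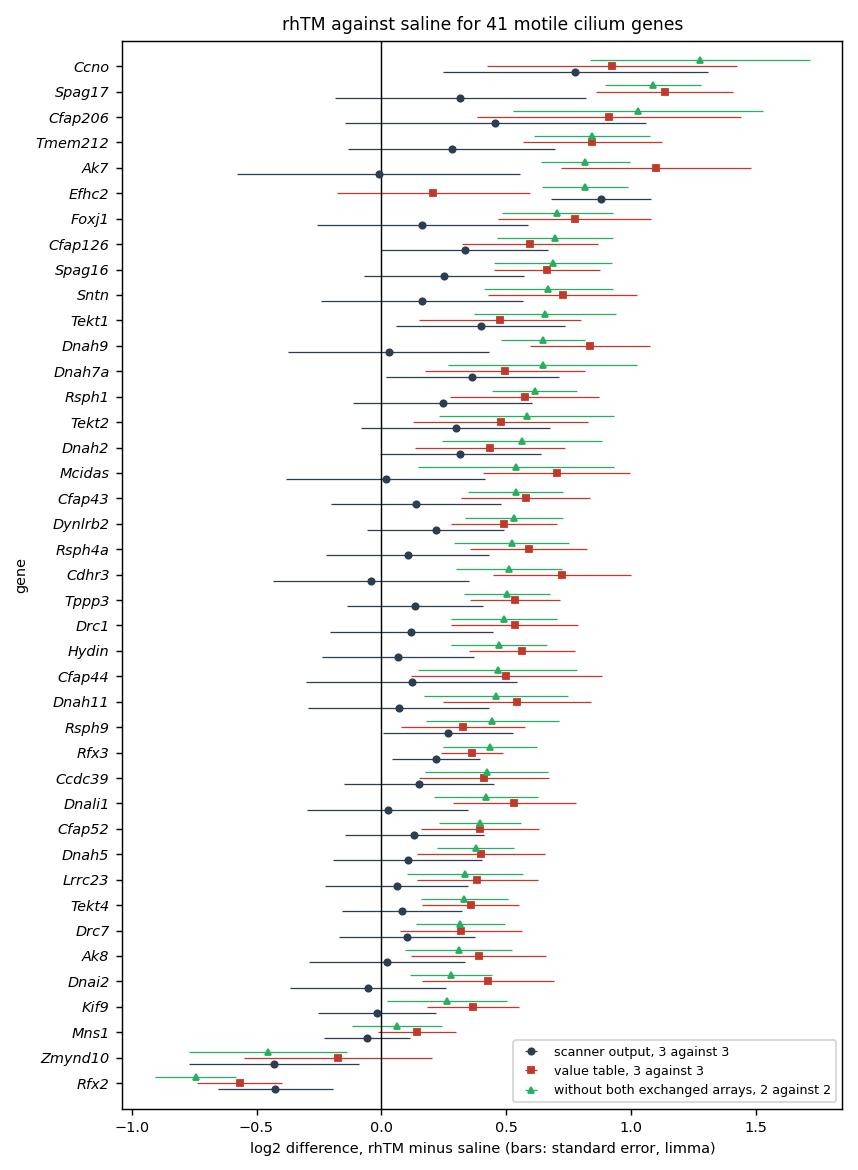
Log2 difference between rhTM and saline for each of the 41 genes (points) with the standard error from limma (bars), by the scanner output, by the authors' table and without both exchanged arrays. By the scanner output 34 of 41 points are right of 0 with a median of 0.13, and by the authors' values 39 of 41 with a median of 0.50.

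Among the regulators, Foxj1, the main transcription factor of motile cilia, followed the group pattern closely. It had signals of 2.95, 2.61 and 2.98 in saline replicates 1, 2 and 3 and of 5.35, 1.56 and 3.87 in rhTM replicates 1, 2 and 3. The 2 highest values and the lowest were all rhTM arrays as scanned, so the groups overlapped. Mean log2 signals were 1.51 ± 0.11 (SD, n = 3) in saline and 1.67 ± 0.92 (SD, n = 3) in rhTM, a difference of 0.16 (SE 0.42, exact permutation p = 0.8). By the table the difference was 0.77 (SE 0.31, limma adjusted p = 0.346), and without both arrays 0.70 (SE 0.22).

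Ccno, a cyclin-like protein needed to multiply centrioles, had 0.334, 0.326 and 0.45 in saline and 1.41, 0.287 and 0.612 in rhTM. Replicate 1 of rhTM was by far the highest array for it and rhTM replicate 2 the lowest. The difference was 0.78 (SE 0.53, and 0.20 without rhTM replicate 1) by the scanner output, 0.92 (SE 0.50) by the table and 1.28 (SE 0.44) without both arrays. Rfx3, an X-box binding factor, was at 0.535, 0.42 and 0.463 in saline and 0.535, 0.459 and 0.666 in rhTM. Its difference was 0.22 (SE 0.18), and by the table, where the groups did not overlap, 0.37 (SE 0.12, limma adjusted p = 0.32).

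The related factor Rfx2 ran the other way. Its signals were 0.0485, 0.0871 and 0.0769 in saline and 0.0485, 0.0563 and 0.0493 in rhTM, with saline replicates 2 and 3 above the other 4 arrays. The rhTM mean was 0.42 log2 units below that of saline by the scanner output (difference −0.42, SE 0.23), and by the table the difference was −0.57 (SE 0.17, limma adjusted p = 0.313). The gene was dim, and its difference was −0.17 (SE 0.11) with normexp background correction and −0.74 (SE 0.16) without both arrays. The offset of 50 added with normexp by itself shrinks differences of so dim a gene (mean signal 47.2).

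Mcidas encodes multicilin, the coregulator that starts multiciliation. The 2 probes matched to it disagree, and whether the brighter one reads Mcidas was not tested. That probe gave 35.1, 18 and 17.6 in saline and 17.5, 17.2 and 38.4 in rhTM. The 2 high arrays, saline replicate 1 and rhTM replicate 3, were the 2 of slide 2, so slide and signal moved together for this probe, and the part of the slide was not tested. A second probe of Mcidas had its lowest log2 value, −5.24, on saline replicate 1, and its r with the first over the 6 arrays was −0.69. The difference of the first probe was 0.02 (SE 0.40), with 0.70 (SE 0.29) by the table and 0.54 (SE 0.39) without both arrays, and that of the second was 0.32 as scanned. Mcidas was the only one of the 41 called in any fit, at 1.06 (limma adjusted p = 0.00778), in the table without rhTM replicate 1, where both remaining rhTM arrays were those of slide 2 and 3.56% of all genes were called.

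**Figure D3:**
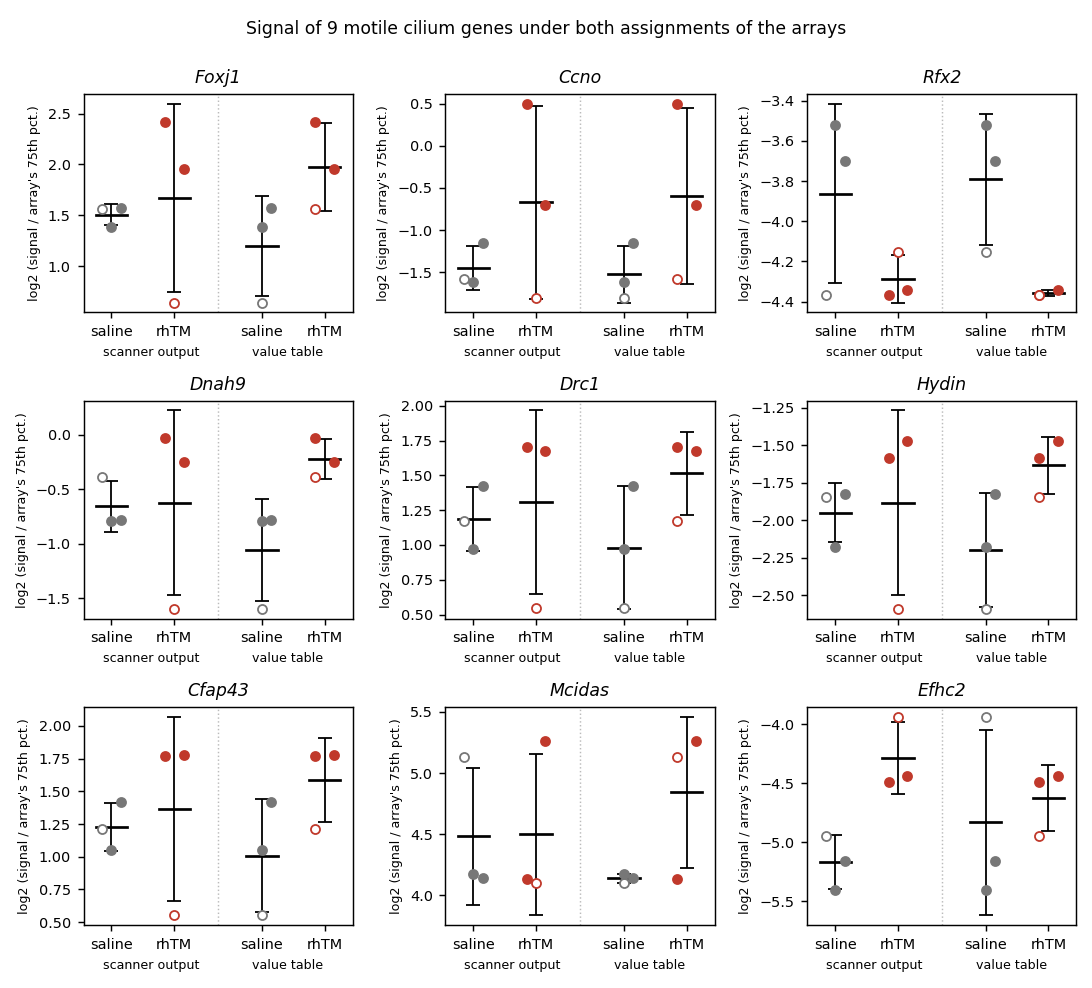
Log2 signal over the array's 75th percentile for 9 motile cilium genes (y axis, a log scale), with saline (grey) and rhTM (red) arrays as assigned by the scanner output (left of the dotted line) and by the authors' table (right). Points are single arrays, open points the 2 exchanged arrays, lines the mean and bars the SD (n = 3), and the open rhTM point is lowest on the left side of 7 panels, with Rfx2 and Efhc2 the exceptions.

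The 4 genes of the outer dynein arm, the main motor of the beat, were all lowest in rhTM replicate 2 and had a median difference of 0.05 as scanned and 0.49 by the table. Dnah5, a heavy chain, had 0.526, 0.607 and 0.637 in saline and 0.813, 0.387 and 0.803 in rhTM, a difference of 0.11 (SE 0.30), with 0.40 (SE 0.26) by the table. The heavy chain Dnah9 had 0.765, 0.577 and 0.58 in saline and 0.98, 0.331 and 0.839 in rhTM, a difference of 0.03 (SE 0.40). For both genes the rhTM arrays held the 2 highest values and the lowest. With the arrays assigned as in the table, Dnah9 did not overlap between the groups, at 0.84 (SE 0.24, limma adjusted p = 0.313). Dnah11, a further heavy chain, and the intermediate chain Dnai2 differed by 0.07 and −0.05 as scanned, and by 0.54 and 0.43 by the table.

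Of the inner dynein arm, which shapes the bend, 3 of 4 genes were tested and all 3 had a higher mean in rhTM, with a median difference of 0.32 as scanned and 0.50 by the table. Dnah2, a heavy chain, had 1.29, 1.3 and 1.58 in saline and 2.84, 1.14 and 1.59 in rhTM, a difference of 0.32 (SE 0.32), with 0.44 (SE 0.30) by the table. Dnali1, a light intermediate chain, had 1.12, 0.978 and 1.19 in saline and 1.28, 0.663 and 1.63 in rhTM, a difference of 0.03 (SE 0.32), with 0.53 (SE 0.25) by the table and 0.42 (SE 0.21) without both arrays. The 2 genes shared their lowest array, rhTM replicate 2, but Dnah2 was highest in rhTM replicate 1 and Dnali1 in rhTM replicate 3. Dnah7a, which has near-identical mouse copies that its probe may also bind, had a difference of 0.36 (SE 0.35), with 0.50 (SE 0.32) by the table. The brightest probe of Dnah1 was well above background only on saline replicates 1 and 2, so no difference is given.

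Zmynd10, which helps to assemble dyneins in the cytoplasm, had 0.377, 0.492 and 0.83 in saline and 0.403, 0.289 and 0.54 in rhTM. Its highest array was saline replicate 3, and its difference was −0.43 (SE 0.34) as scanned and −0.17 (SE 0.38) by the table. Dynlrb2, a roadblock-type dynein light chain, followed the group at 7.67, 6.76 and 8.61 in saline and 11.7, 5.77 and 10.4 in rhTM. The difference of Dynlrb2 was 0.22 (SE 0.27) and, by the table, 0.49 (SE 0.21).

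The nexin-dynein regulatory complex and the ruler protein Ccdc39 hold the spacing of the arms, and all 3 tested genes were lowest in rhTM replicate 2. Drc1, a core subunit, had 2.25, 1.96 and 2.69 in saline and 3.25, 1.46 and 3.19 in rhTM. Drc7, another subunit, had 0.244, 0.282 and 0.31 in saline and 0.401, 0.195 and 0.338 in rhTM. In both, rhTM replicates 1 and 3 were above every saline array. The difference of Drc1 was 0.12 (SE 0.33) by the scanner output, 0.53 (SE 0.26) by the table and 0.49 (SE 0.21) without both arrays, and the 3 genes lay between 0.10 and 0.15 as scanned. Drc7 stood at 0.10 (SE 0.27), with 0.32 (SE 0.25) by the table.

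All 5 radial spoke genes had a higher mean in rhTM, with a median difference of 0.25 as scanned and 0.57 by the table. Rsph9, a spoke head protein, had 2.35, 2.34 and 3 in saline and 4.42, 2.21 and 2.94 in rhTM, a difference of 0.27 (SE 0.26), with 0.33 (SE 0.25) by the table. Lrrc23, a stalk protein, had 0.88, 0.837 and 1.07 in saline and 1.04, 0.629 and 1.38 in rhTM, a difference of 0.06 (SE 0.29), with 0.39 (SE 0.24) by the table. In neither gene were the groups apart, and as scanned the range of the rhTM arrays took in all saline values. Another spoke head protein, Rsph4a, had 0.272, 0.231 and 0.261 in saline and 0.295, 0.164 and 0.421 in rhTM, a difference of 0.11 (SE 0.33), and by the table, 0.59 (SE 0.23, limma adjusted p = 0.345) without overlap.

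The central pair apparatus at the core of the axoneme was covered by 4 genes, and 3 of them had a higher mean in rhTM as scanned. Hydin had 0.278, 0.221 and 0.282 in saline and 0.333, 0.166 and 0.36 in rhTM, a difference of 0.07 (SE 0.30), with 0.56 (SE 0.21) by the table and 0.47 (SE 0.19) without both arrays. Kif9, a kinesin of the central pair, had 0.166, 0.138 and 0.147 in saline and 0.14, 0.111 and 0.208 in rhTM, a difference of −0.02 (SE 0.24), with 0.37 (SE 0.18) by the table. Spag17 is another protein of this apparatus, and for it, as for Hydin and Kif9, the size turned on the assignment. Its signals were 0.0955, 0.0603 and 0.0769 in saline and 0.14, 0.0408 and 0.149 in rhTM, which gave a difference of 0.32 (SE 0.50) as scanned and 1.13 (SE 0.28, limma adjusted p = 0.313) by the table.

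Tektins and other proteins inside the microtubule doublets numbered 8, of which 7 were tested and 6 had a higher mean in rhTM. Tekt1 had 1.54, 1.56 and 2.21 in saline and 3.55, 1.42 and 2.41 in rhTM, a difference of 0.40 (SE 0.34), with 0.48 (SE 0.32) by the table. Cfap126 had 3.94, 3.58 and 4.68 in saline and 7.58, 3 and 5.81 in rhTM, a difference of 0.33 (SE 0.33), with 0.60 (SE 0.27) by the table. In both, rhTM replicates 1 and 3 were the 2 highest arrays.

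Efhc2, a microtubule inner protein, was the exception of this set. It was dim, with 0.0324, 0.0236 and 0.028 in saline and 0.0445, 0.0652 and 0.0461 in rhTM, and its highest array was rhTM replicate 2. All 3 rhTM values were above all 3 saline values, with mean log2 signals of −5.17 ± 0.23 (SD, n = 3) and −4.29 ± 0.31 (SD, n = 3). The difference was 0.88 (SE 0.20, limma p = 0.00329 and adjusted p = 0.99994, exact permutation p = 0.1). With normexp background correction it was 0.33 (SE 0.11), without overlap. That setting adds an offset of 50, above the mean signal of this probe (30.6), which by itself shrinks differences. By the table the groups overlapped, at 0.21 (SE 0.39), and without both arrays the difference was 0.82 (SE 0.17).

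Cfap43 and Cfap44 tether an inner arm dynein to the axoneme. Cfap43 had 2.32, 2.07 and 2.67 in saline and 3.41, 1.47 and 3.43 in rhTM, and it had the highest r with the mean of the other members, 0.997. Cfap44 had 0.162, 0.173 and 0.242 in saline and 0.363, 0.109 and 0.22 in rhTM. For Cfap44 the difference was 0.12 (SE 0.42), with 0.50 (SE 0.38) by the table. The difference of Cfap43 was 0.14 (SE 0.34) by the scanner output, 0.58 (SE 0.26) by the table and 0.54 (SE 0.19) without both arrays.

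The 6 remaining genes mark ciliated cells without belonging to a single axonemal complex, and all 6 were lowest in rhTM replicate 2. Tppp3, a tubulin-binding protein, had 27.9, 25 and 25.2 in saline and 32.6, 18.4 and 38.8 in rhTM, a difference of 0.14 (SE 0.27), and by the table, 0.54 (SE 0.18, limma adjusted p = 0.319) without overlap. Tmem212, a membrane protein, had 4.63, 3.35 and 4.78 in saline and 7.7, 2.58 and 6.72 in rhTM, a difference of 0.28 (SE 0.42) and, by the table, 0.85 (SE 0.28). Both had rhTM replicates 1 and 3 above every saline array. The adenylate kinase Ak7 was well above background on 5 arrays and not on rhTM replicate 2, where it read 0.0204 against 0.0471 to 0.0955 elsewhere. Its difference was −0.01 (SE 0.57) as scanned and 1.10 (SE 0.38) by the table, and 0.82 (SE 0.18) without both arrays, which leaves out that reading at background. As scanned, under quantile normalization and normexp background correction it was 0.038 and 0.097.

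Where a gene had further probes above background on all arrays, these could be set beside the brightest. Of 16 such second probes, 13 were lowest in rhTM replicate 2 and 7 had an r over 0.9 with the brightest probe of their gene across the 6 arrays.

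Other ciliary genes were taken from lists that share no gene with the 44. Of 70 other genes of the axoneme and of dynein assembly, 56 were tested, 45 had a higher mean in rhTM and 44 were lowest in rhTM replicate 2 (12.4% of all genes were). Their median difference was 0.10 by the scanner output, with 0 called, 0.42 by the table and 0.42 without both arrays. The 2 with the smallest p were Cfap69, a central pair protein, at 0.45 (SE 0.17), and Ttc25, a protein of outer arm docking, at −0.42 (SE 0.19). By the table, the same genes stood at 0.16 (SE 0.23) and 0.17 (SE 0.24).

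Further lists held the genes that build basal bodies and the genes of intraflagellar transport, the traffic that all cilia need. Of 21 tested genes of multiciliation and centriole amplification, 9 had a higher mean in rhTM and 5 were lowest in rhTM replicate 2, with median differences of −0.03 as scanned and −0.01 by the table. Their 2 smallest p belonged to Stil, a centriole duplication protein, at −0.26 (SE 0.13), and Trp73, a transcription factor of multiciliation, at −0.21 (SE 0.12). Of 38 genes of intraflagellar transport and the BBSome, 27 were higher as scanned and 20 by the table, and 6 were lowest in rhTM replicate 2. In that list Ift20 stood at 0.23 (SE 0.12) and Ift22 at −0.20 (SE 0.14), and 0 genes of these lists were called by the scanner output or by the table with all arrays. By the table without rhTM replicate 1, 5 of 117 tested genes of the cilium lists were called, where 3.56% of all genes were, and are named for that: Dnal1 (1.00), Cfap54 (1.72), Cfap77 (1.46), Gmnc (1.66) and E2f4 (0.79). By the table with a slide term, which rests on 1 rhTM array, Ttc21b was called at −0.82, where 2.65% of all genes were called.

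Markers of airway secretory cells, the other main cell type of the airway lining, were also low in rhTM replicate 2. The mean deviation of 16 such genes was −0.46 log2 units there and 0.18 and 0.30 in rhTM replicates 1 and 3, with −0.02, 0.03 and −0.03 in saline replicates 1, 2 and 3. Of the 16, 10 were lowest in rhTM replicate 2, and their summed signal ranged from 1581.5 to 1741.6 in saline and from 1367.3 to 1892.4 in rhTM, a sum in which bright probes weigh most. The median difference was 0.01 as scanned and 0.36 by the table.

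The deviation in rhTM replicate 2 was −0.25 for 12 markers of airway basal and neuroendocrine cells, −0.18 for 15 general epithelial genes, −0.18 for 6 cartilage markers and 0.11 for 12 alveolar type 2 cell markers. Of the cartilage list, 6 of 16 genes were tested. Basal and neuroendocrine markers were higher in rhTM for 4 of 12, general epithelial genes for 9 of 15, cartilage markers for 1 of 6 and alveolar type 2 markers for 1 of 12 as scanned, against 50.7% of all genes. By the table those counts were 5 of 11, 12 of 15, 4 of 7 and 6 of 12, against 46% of all genes. There the median was 0.21 for the general epithelial genes and −0.06 for the alveolar type 2 markers. With all arrays, 0 genes of these marker lists were called by the table, while 3 of 61, Snap25, Snorc and Lyz1, were called without rhTM replicate 1 (3.56% of all genes) and 1 of 61, Snorc, with the slide term (2.65%). The part of these cell types in the ciliary values was not tested.

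**Figure D4:**
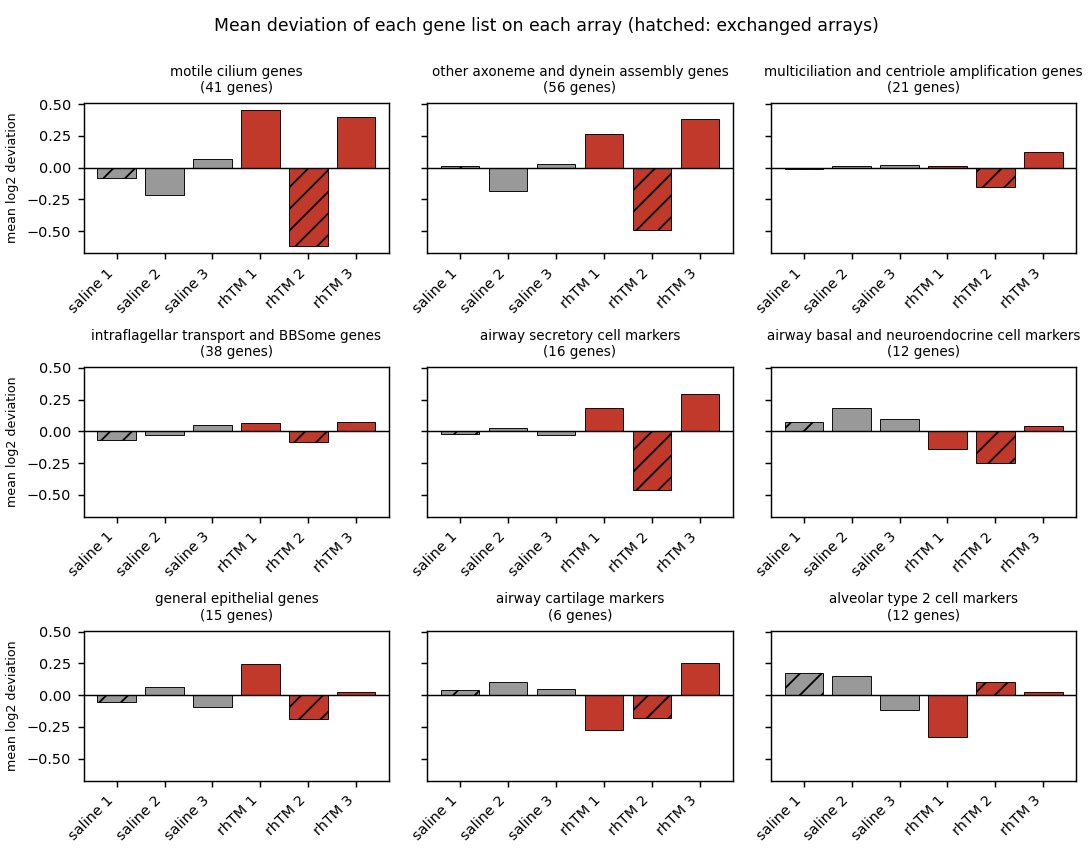
Mean log2 deviation from each gene's own mean (y axis) on each of the 6 arrays (bars, saline grey and rhTM red, hatched where the authors' table exchanges the array) for 9 gene lists, with the number of genes in each title. In rhTM replicate 2 the bar is −0.62 for the motile cilium genes, −0.49 for other axoneme genes and −0.46 for airway secretory markers, and 0.11 for alveolar type 2 markers.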

How the data were processed

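Lungs of 3 mice per group were read on 1-colour arrays, and samples were grouped by their labels. Per the file headers the authors ran Feature Extraction 10.7.3.1 (9.1 per the processing notes), and the deposited intensity values are linear, background-corrected and unscaled between arrays. A deposited series table holds the same intensities. The methods name another RNA kit than the labels.

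Spots of a probe were averaged, 398 of 56605 probes without an unflagged spot on every array were left out, and log2 signals were scaled to the 75th percentile of each array. Accessions matched 32994 probes to 22911 genes of a RefSeq table (GRCm38.p6), under whose name Dnaic2 the gene Dnai2 is listed. A gene's brightest probe stood for it, and it was tested when all 3 arrays of a group had it well above background. Groups were compared with limma 3.58.1 in R 4.3.3 with Benjamini-Hochberg adjustment at 0.05. The scripts were tested on simulated data with independent genes and no slide effect, which checks the code only. The number of arrays limits the precision.

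The members and lists were chosen with earlier results of these data known, so no list was tested as a set. Values array by array are given for the regulators, for the 2 brightest genes of each role, for the 5 smallest p and genes without overlap by the scanner output and, added after their values were seen, for Rsph4a, Spag17 and Ak7. Alternatives were quantile normalization, another percentile, normexp (offset 50, on median signals), the authors' table, each array left out, both exchanged arrays left out, slide and replicate number as blocks, other filters, the mean of a gene's probes and the methods' t-test. The replicate numbers were checked for pairing: deviations of same-numbered arrays correlated at -0.30, 0.44 and -0.45 over 16362 genes, so the numbers do not pair the mice. The highest correlation between the groups was 0.64, of saline replicate 1 with rhTM replicate 3, the 2 arrays of slide 2 as scanned. Probe coordinates are not given, since the array design uses another build.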

Additional observations from a re-analysis of the deposited data

How the results depend on the processing

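By the scanner output, 0 of 41 ciliary genes were called under every alternative run, and the count of all genes called was 0 except for 1 gene without both exchanged arrays and 0 to 3 with 1 array left out. The median difference ran from -0.04 to 0.50 with 1 array left out, lowest without rhTM replicate 1 and highest without rhTM replicate 2, and the genes whose groups did not overlap numbered 1 to 29, against 8.96% to 24.5% of all genes, with 29 and 24.5% both without rhTM replicate 2. That number was 9 by the table (21.7% of all genes), 31 without both exchanged arrays (41.5%) and 5 within slide 1 (26.8%). Adding the slide to the fit of the table, which leaves 1 rhTM array against 3 saline arrays and assumes that it varies like the others, gave 432 genes called in all, 0 of the 41 and 1 of the other cilium lists, with a median of 0.67 for the 41 and 9 without overlap. With 1 array left out, the table called 0 to 591 genes in all, the highest without rhTM replicate 1, of them 0 to 1 of the 41 and 0 to 5 of the other cilium lists, and 9 to 30 of the 41 did not overlap, against 26.8% to 46.1% of all genes. Of these, 30 came without rhTM replicate 2 (34.8%), 28 without saline replicate 3 (33.4%) and 11 without rhTM replicate 1 (46.1%). With the replicate block 0 genes were called and the median was 0.13, and the block changed no call. The methods' t-test called 0 genes after adjustment, and 1 gene, not ciliary, passed its fold and P thresholds.

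Signs of small differences turned. Mcidas was at -0.025 under quantile normalization, -0.0063 under the other percentile, -0.034 under normexp and -0.0078 by the table with a slide term. Ak7 was at 0.038 under quantile normalization, at 0.097 under normexp, at 1.10 by the table, at 1.17 there with a slide term and at 0.82 without both arrays. Kif9 was at 0.0019 under quantile normalization, 0.056 under normexp, 0.37 by the table, 0.095 there with a slide term and 0.26 without both arrays. Dnai2 was at 0.43 by the table, 0.51 there with a slide term and 0.28 without both arrays. With 1 array left out, the ranges that crossed 0 were -0.21 to 0.68 for Foxj1, -0.36 to 0.34 for Mcidas, -0.077 to 0.46 for Dnah5, -0.27 to 0.51 for Dnah9, -0.043 to 0.62 for Dnah2, -0.25 to 0.40 for Dnali1, -0.077 to 0.50 for Drc1, -0.21 to 0.47 for Rsph4a, -0.14 to 0.42 for Hydin, -0.012 to 0.93 for Spag17, -0.067 to 0.54 for Cfap43, -0.41 to 0.70 for Ak7, -0.084 to 0.45 for Tppp3, -0.27 to 0.19 for Kif9, -0.19 to 0.37 for Lrrc23, -0.29 to 0.58 for Cfap44, -0.11 to 0.41 for Drc7, -0.26 to 0.46 for Dnah11, -0.27 to 0.32 for Dnai2, -0.027 to 0.66 for Dnah7a and -0.014 to 0.78 for Tmem212, and by the table -0.56 to 0.20 for Zmynd10 and -0.077 to 0.66 for Efhc2. Ranges that kept their sign were 0.20 to 1.34 for Ccno, 0.075 to 0.34 for Rfx3, -0.68 to -0.25 for Rfx2, -0.68 to -0.11 for Zmynd10, 0.021 to 0.53 for Dynlrb2, 0.0041 to 0.50 for Rsph9, 0.084 to 0.75 for Tekt1, 0.047 to 0.71 for Cfap126 and 0.70 to 0.99 for Efhc2. By the table the other genes named here kept their sign but not their size. There Dnah2 ran from 0.11 to 0.68, Rsph9 from 0.077 to 0.53 and Tekt1 from 0.18 to 0.78. The highest of each range that crossed 0 as scanned, but that of Mcidas, came without rhTM replicate 2. The cause was not tested. Dnah1 and Ak7 were limited by signal over background.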

Other observations

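Outside the 44 genes, the 10 genes whose signals ran most like the mean profile of the 41 tested members over the 6 arrays were Nme9, Ankrd45, Zfp750, Uckl1os, Ubxn10, Fbxo36, Zfp600, Dnah6, Efhb and Muc4, with Pearson's r from 0.992 to 0.996. Of them, Ubxn10, Dnah6 and Efhb were on the list of other axoneme and dynein assembly genes. Dnah6, an inner arm dynein heavy chain, had log2 signals of 1.09, 0.71 and 1.17 in saline replicates 1, 2 and 3 and of 1.77, 0.26 and 1.66 in rhTM replicates 1, 2 and 3. Muc4, a membrane-bound mucin of the airway surface, had 1.59, 1.47 and 1.72 in saline and 2.13, 1.12 and 2.19 in rhTM. Both were lowest in the array scanned as rhTM replicate 2 and highest in rhTM replicate 1 or 3, which is the pattern they were chosen for.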
